A study of Mus musculus with 9 samples.

Results

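Neurotrophins and their receptors were measured by array in mouse cerebella at postnatal day 5. The listed genes were the ligands Bdnf and Ntf3, the receptor tyrosine kinases Ntrk2 and Ntrk3, the p75 receptor Ngfr and the sorting receptor Sort1. They were found as probe sets with that single gene symbol in the platform annotation. Of the 6 genes, 5 were found, on 11 probe sets, among 19147 genes tested. Ntf3 was the exception: no probe set carried its symbol, and its level is not given. The study set 3 groups of 3 mice side by side, with 1 custom Affymetrix array for each mouse. SmoA2 mice carry a transgene for an activated form of Smoothened, which relays Sonic hedgehog signals across the cell membrane. The transgene is driven by a fragment of the Neurod2 (ND2) promoter active in granule neuron precursors. The second mutant group is labelled only Smo/Smo, the published name for mice homozygous for the similar SmoA1 transgene. Wildtype mice of the same age were the controls. All 3 groups are of strain C57BL/6 by the labels, which give the tissue as brain, while the design text says cerebella. Values are RMA probe set intensity, the background-corrected and normalized fluorescence of a set of short probes, and tests were run on its log2. For genes with several probe sets, the one with the highest mean log2 over the 9 arrays was used and the others stand beside it.

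Neurotrophins are secreted growth factors of neurons, made as precursors that are cleaved to the mature form. Mature BDNF (Bdnf) acts through TrkB (Ntrk2) and neurotrophin-3 (Ntf3) through TrkC (Ntrk3), while p75 (Ngfr) binds all of them and, with sortilin (Sort1), binds the uncleaved precursors. In the developing cerebellum BDNF promotes the migration of granule neurons out of the external granular layer, and p75 is made by proliferating granule neuron precursors of that layer. Both Trk genes also give truncated receptors without the kinase domain, and truncated TrkB is the main form of astrocytes.

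Sequence upstream of a start site was at hand in RefSeq promoter windows (build GRCm38.p6) for 4 of the 6 genes. They are shown for the ligand gene, whose many promoters respond to different signals, and for the p75 gene. Of 7 Bdnf windows, the first one below holds the CREB site known in rat from the activity-dependent promoter, and Ngfr had 1 window. Each line gives the 250 bases before the annotated start, 5′ to 3′ on the gene's strand, at chr2:109692186-109692435 (plus strand) for Bdnf and chr11:95587699-95587948 (minus strand) for Ngfr.
Bdnf: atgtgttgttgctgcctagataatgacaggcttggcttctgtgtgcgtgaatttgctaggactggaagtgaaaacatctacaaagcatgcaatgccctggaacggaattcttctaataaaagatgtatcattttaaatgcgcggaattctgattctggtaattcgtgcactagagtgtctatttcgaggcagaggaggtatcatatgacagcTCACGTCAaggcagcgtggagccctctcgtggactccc
Ngfr: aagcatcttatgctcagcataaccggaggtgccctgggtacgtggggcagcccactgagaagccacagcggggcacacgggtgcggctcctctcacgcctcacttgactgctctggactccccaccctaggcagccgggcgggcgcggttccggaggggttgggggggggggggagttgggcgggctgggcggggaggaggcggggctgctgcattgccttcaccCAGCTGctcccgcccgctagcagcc
Capitals mark the CREB site TCACGTCA in Bdnf, 38 bases before the start at its first base, and the E-box CAGCTG in Ngfr, 25 bases before it. These letters and the Gli motif GACCACCCA were searched on both strands of 11 windows of the listed genes, and no match overlapped another. TCACGTCA was found in 1 of the 11, against 0.35% of all 32851 mouse windows. CAGCTG was found in 2, the Ngfr window and another Bdnf window, against 13% of all. GACCACCCA was found in 0 of the 11, against 0.225% of all. A match describes the letters only.

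Array medians lay between 91 and 95.1. In females, 4 Y-linked probe sets gave log2 values of 2.23 to 5.57, taken as a sign of background, and detection calls were not used here. Their mean on each female array was 3.28 to 3.54, so the upper end of this range is an extreme. By Xist and the Y-linked genes there were 1 female and 2 males in SmoA2, 1 female and 2 males in Smo/Smo, and 2 females and 1 male in Wildtype. Defining cerebellar markers were present, among them the granule precursor factor Atoh1 (mean log2 10.49 in SmoA2, 9.79 in Smo/Smo and 9.67 in Wildtype) and the Purkinje cell gene Calb1 (12.71, 13.00 and 12.98 in that order). In SmoA2 against Wildtype, where 2.69% of all genes were called, 4 of 7 granule neuron progenitor markers rose and 3 had no call. Of these 3, Ccnd2 went the other way, at -0.24 (adjusted p = 0.0787 in limma), with all SmoA2 arrays below the Wildtype ones. Of 9 Purkinje cell markers 3 fell, and all 9 lay below 0 with an unadjusted p under 0.05 and no overlap of the groups. That p was reached by 14.8% of all genes, and 19.1% did not overlap. Called lower were also 4 of 14 markers of Bergmann glia and astrocytes, 4 of 6 of GABAergic interneurons and 9 of 13 of meninges. So were 2 of 7 of endothelial cells and 1 of 8 of mural cells. Values above 0 were found for 2 of the 14, 1 of the 6 and 1 of the 13. They were also found for 3 of the 7 and 4 of the 8. The meningeal one was Lum, at 0.38 (adjusted p = 0.22 in limma), with all SmoA2 arrays above the Wildtype ones. Of 6 granule neuron markers 1, Grin2c, rose (0.64 on the log2 scale), while the other 5 had values below 0 with no call and the list's median was -0.14, with Cntn2 at -0.39 (adjusted p = 0.129) and Neurod1 at -0.20 (0.187). None of 7 oligodendrocyte lineage markers, 3 Schwann cell and neural crest markers or 1 erythrocyte marker was called in limma, beside 2, 2 and 0 of them with an unadjusted p under 0.05. The first 2 were Olig1 at 0.40 and Olig2 at 0.23 (adjusted p = 0.0845 and 0.156), with all SmoA2 arrays above the Wildtype ones. Their list had 3 values above 0 and 4 below. The other 2, Erbb3 and Pmp22, lay below 0. The mean log2 level of the progenitor list spanned 11.46 to 11.61 in SmoA2, 11.32 to 11.38 in Smo/Smo and 11.12 to 11.24 in Wildtype. That of the Purkinje list spanned 10.17 to 10.38, 10.67 to 10.74 and 10.77 to 10.79 in the same order. That of the astrocyte list spanned 10.17 to 10.25, 10.50 to 10.56 and 10.53 to 10.57. That of the meningeal list spanned 8.79 to 9.16, 9.41 to 9.48 and 9.57 to 9.58. The microglial list spanned 8.01 to 8.24 in SmoA2, 7.63 to 7.80 in Smo/Smo and 7.79 to 7.99 in Wildtype. In SmoA2 against Wildtype 0 of its 9 members were called in limma and 4 had an unadjusted p under 0.05. In SmoA2 against Smo/Smo 3 of the 9 were called higher, where 2.56% of all genes were called. There 7 of them lay above 0 and 2 below. The choroid plexus list stood apart in Wildtype replicate 3, at 6.26 against 8.54 and 8.45 in Wildtype replicates 1 and 2. It spanned 9.01 to 9.26 in SmoA2 and 9.30 to 9.57 in Smo/Smo. None of its 11 members was called in limma in SmoA2 or in Smo/Smo against Wildtype, and 10 and 9 had an unadjusted p under 0.05. For all 11, the arrays of each mutant group lay above every Wildtype array. Groups did not overlap for 19.1% of all genes in SmoA2 and 15.9% in Smo/Smo against Wildtype. Among markers of Schwann cells and neural crest, other cells rich in p75, 3 were measured. Foxd3 lay within the background range (mean log2 of 3.32 in SmoA2, 3.25 in Smo/Smo and 3.27 in Wildtype). Erbb3 averaged 5.52, 5.68 and 5.90 in that order (-0.37 in SmoA2 against Wildtype, adjusted p = 0.173). Its SmoA2 mean lay within the background range and its other means just above it. Pmp22, at 10.47, 10.69 and 10.77, was well above background (-0.29, adjusted p = 0.189). Of 8 markers of sensory, motor and autonomic neurons, which are rich in Trk receptors, Isl1 and Pou4f1 rose (3.07 and 2.19 on the log2 scale). Pou4f1 averaged 6.96 in SmoA2, and 5.18 in Smo/Smo and 4.77 in Wildtype, both within the background range. The other 6 lay between -0.19 and 0.16 with no call. Among them, Scn10a and Chat had mean levels within the background range in every group. The list's median was 0.07. Its mean log2 level spanned 5.84 to 6.14 in SmoA2, 5.36 to 5.47 in Smo/Smo and 5.18 to 5.52 in Wildtype. The part of these cell types in the values below was not tested, and in whole tissue fewer cells of a type and less RNA per cell cannot be told apart.

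The comparison of SmoA2 with Wildtype asked which transcripts differ in the SmoA2 line, the subject of the study. No neurotrophin gene passed the test in it. By limma, 0 of the 5 measured genes had a Benjamini-Hochberg adjusted p under 0.05 over all genes, where 2.69% of genes tested did. At an unadjusted p under 0.05 there were 4 of 5, against 14.8% of all genes. For the same 4, Bdnf, Ntrk3 and Ngfr above and Sort1 below, the 3 SmoA2 arrays did not overlap the 3 Wildtype arrays, which held for 19.1% of all genes. The genes were chosen with earlier results of these arrays known, so these shares are descriptions. The median log2 fold change of the 5 genes was 0.29, against 0.01 over all genes. It is not known whether the arrays came from separate litters, and with 3 of them per group their number limits the precision.

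**Figure D1:**
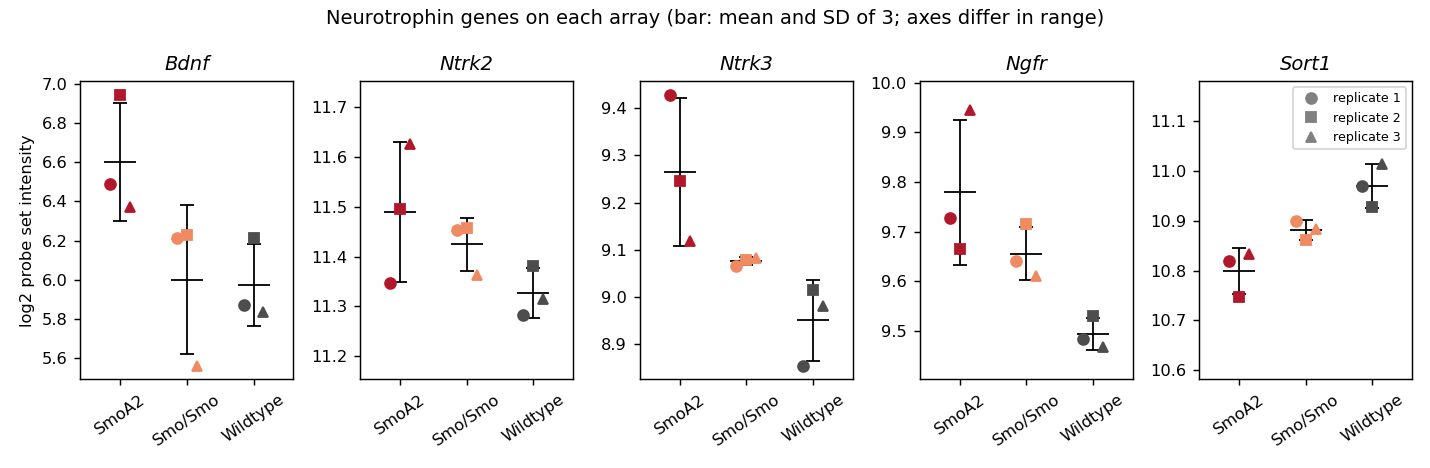
Log2 probe set intensity of the 5 measured genes on each array, with SmoA2, Smo/Smo and Wildtype from left to right, symbols for replicates, and bars for the mean and SD of 3 arrays. SmoA2 arrays lie above all Wildtype arrays for Bdnf, Ntrk3 and Ngfr and below them for Sort1, while the groups overlap for Ntrk2.

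Bdnf, the gene for the ligand of TrkB, had the widest difference of the 5. Its main probe set read an intensity of 89.7, 123 and 82.8 in SmoA2 replicates 1, 2 and 3, 74.2, 74.9 and 47.2 in Smo/Smo, and 58.6, 74.2 and 57.1 in Wildtype. Each SmoA2 array was above every array of both other groups, and SmoA2 replicate 2 was the highest. The Smo/Smo arrays lay on both sides of the Wildtype ones, with Smo/Smo replicate 3 the lowest of all 9. At a log2 of 5.56, that array was within the background range. The log2 fold change of SmoA2 against Wildtype was 0.63 ± 0.21 (SE, n = 3 per group), or 1.55-fold, with a 95% interval of 0.16 to 1.10 and an adjusted p of 0.187 in limma. It lay between 0.46 and 0.75 in all 21 alternative settings, none of which called it. The lowest adjusted p among them was 0.0792. The other Bdnf probe set read 61.8, 49.8 and 50.8 in SmoA2, 46.3, 43.3 and 45.8 in Smo/Smo, and 46.8, 44.4 and 32.0 in Wildtype. Its Wildtype and Smo/Smo values lay within the background range on all arrays, while its SmoA2 arrays were again the 3 highest. Its log2 difference of SmoA2 against Wildtype, 0.41 ± 0.14 (adjusted p = 0.213 in limma), therefore rests on Wildtype values within that range. Both Bdnf probe sets were close to background, with a mean log2 over 9 arrays of 6.19 and 5.53.

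Ntrk2, the gene for TrkB, had 5 probe sets that did not give 1 pattern. The main probe set read 2604, 2888 and 3161 in SmoA2, 2803, 2812 and 2634 in Smo/Smo, and 2492, 2667 and 2547 in Wildtype. SmoA2 replicate 3 was the highest array and SmoA2 replicate 1 lay between Wildtype arrays, so the groups overlapped. The log2 fold change of SmoA2 against Wildtype was 0.16 ± 0.08, with a 95% interval of -0.01 to 0.34 (adjusted p = 0.37 in limma). The probe set annotated with the RefSeq transcript of full-length TrkB, NM_001025074, read 1799, 1857 and 1445 in SmoA2, 1624, 1647 and 1718 in Smo/Smo, and 1739, 1686 and 1738 in Wildtype. The one annotated with the truncated form, NM_008745, read 1330, 1335 and 1073 in SmoA2, 1184, 1197 and 1209 in Smo/Smo, and 1132, 1279 and 1133 in Wildtype. On both of these, SmoA2 replicate 3 was the lowest of the 9 arrays, although it was the highest on the main probe set. Their fold changes were -0.03 ± 0.09 for the full-length and 0.07 ± 0.09 for the truncated form, with intervals of -0.23 to 0.18 and -0.14 to 0.28. Probe positions were not at hand, and whether these sets tell the 2 forms apart was not tested. The other Ntrk2 probe sets gave 0.08 and -0.06 on the log2 scale. On the second of these SmoA2 replicate 3 was again the lowest of the 9 arrays, at 80.6. On the first it read 1179, with only Wildtype replicate 3 lower, at 1175. For Ntrk2 the position of SmoA2 replicate 3 thus depended on the probe set, and without that array the main probe set gave 0.09 (adjusted p = 0.597).

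**Figure D2:**
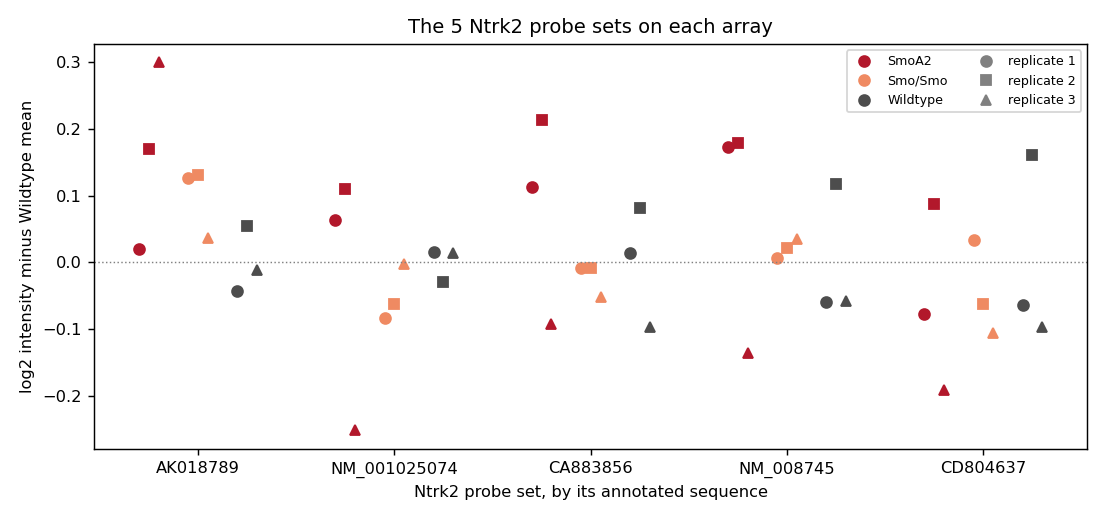
Log2 intensity of the 5 Ntrk2 probe sets on each array, each centred on its own Wildtype mean, with SmoA2, Smo/Smo and Wildtype from left to right within a probe set and symbols for replicates. SmoA2 replicate 3 (triangle) is the top point of the first probe set and the lowest of the NM_001025074 and NM_008745 sets and of the last set.

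Ntrk3, the gene for TrkC, the receptor of neurotrophin-3, was higher on all SmoA2 arrays on both of its probe sets. The main one read 689, 607 and 556 in SmoA2, 536, 541 and 542 in Smo/Smo, and 463, 518 and 506 in Wildtype. The 3 groups did not overlap, and the Smo/Smo arrays were within a few units of each other. The log2 fold change of SmoA2 against Wildtype was 0.31 ± 0.08, or 1.24-fold, with an interval of 0.13 to 0.50 and an adjusted p of 0.0952 in limma. It was called in 4 of the 21 alternatives: with genes of mean log2 under 6 left out (adjusted p = 0.0456), with an intensity trend (0.0479), with array weights (0.0356) and without SmoA2 replicate 3 (0.39, adjusted p = 0.0483). Over all alternatives its adjusted p ranged from 0.0356 to 0.296. The second probe set, annotated with the truncated TrkC transcript NM_182809, read 418, 402 and 408 in SmoA2, 377, 364 and 387 in Smo/Smo, and 341, 383 and 326 in Wildtype. The SmoA2 arrays were again the 3 highest, at 0.23 ± 0.07 against Wildtype on the log2 scale (adjusted p = 0.165), while Smo/Smo overlapped Wildtype.

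Ngfr, the p75 gene, was higher on all 3 arrays of both mutant groups than on any Wildtype array. It read 848, 812 and 985 in SmoA2, 798, 841 and 782 in Smo/Smo, and 717, 739 and 708 in Wildtype. SmoA2 replicate 3 was the highest, and the lowest SmoA2 array lay below the highest Smo/Smo array. The log2 fold change of SmoA2 against Wildtype was 0.29 ± 0.08, or 1.22-fold, with an interval of 0.11 to 0.46 and an adjusted p of 0.105 in limma. It was called in 2 of 21 alternatives, with genes of mean log2 under 6 left out (adjusted p = 0.0495) and with an intensity trend (0.0481), and the adjusted p reached 0.27. Without SmoA2 replicate 3 it stood at 0.20 (adjusted p = 0.149). In Smo/Smo against Wildtype Ngfr gave 0.16 ± 0.08, with an interval of -0.01 to 0.34 (adjusted p = 0.603).

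Sort1, the gene for sortilin, which binds precursor neurotrophins together with p75 and sorts BDNF for release, was the only one of the 5 lower in SmoA2. It read 1807.5, 1719 and 1823 in SmoA2, 1911, 1859.8 and 1889 in Smo/Smo, and 2005, 1947 and 2070 in Wildtype. The 3 groups did not overlap, with Smo/Smo between the other groups. The log2 fold change of SmoA2 against Wildtype was -0.17 ± 0.05, or 1.13-fold lower, with an interval of -0.29 to -0.05 and an adjusted p of 0.168 in limma. None of the 21 alternatives called it (lowest adjusted p 0.0686), and its value stayed between -0.19 and -0.14.

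**Figure D3:**
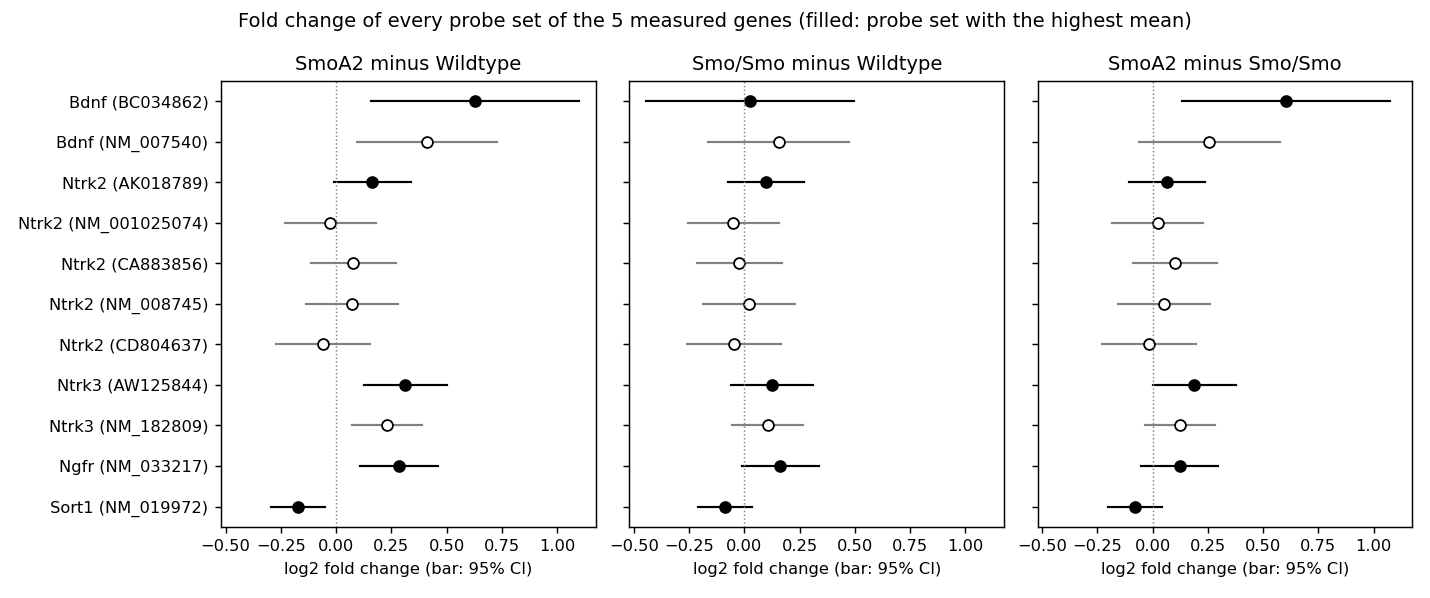
Log2 fold change of each of the 11 probe sets in SmoA2 minus Wildtype, Smo/Smo minus Wildtype and SmoA2 minus Smo/Smo, with 95% confidence intervals from the fit and filled points for the probe set with the highest mean. Intervals in SmoA2 minus Wildtype lie above 0 for both Bdnf and both Ntrk3 probe sets and Ngfr, below 0 for Sort1, and cross 0 for all Ntrk2 probe sets.

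In Smo/Smo against Wildtype, 0 of the 5 genes were called in limma, where 0.371% of all genes were. None had an unadjusted p under 0.05, against 8.77% of all genes. Groups did not overlap for 3, Ntrk3 and Ngfr above and Sort1 below, against 15.9% of all genes. Ntrk3 gave 0.13 ± 0.08 (adjusted p = 0.741), Ntrk2 0.10 ± 0.08 (0.789), Sort1 -0.09 ± 0.05 (0.717) and Bdnf 0.03 ± 0.21 (0.986). The Bdnf interval, -0.44 to 0.50, leaves room for changes of either sign, and its sign turned when single arrays were left out (-0.09 to 0.25). The codes of Smo/Smo animals start with other characters than those of SmoA2 and Wildtype animals, and an effect of their source cannot be told apart from genotype.

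The direct comparison of SmoA2 with Smo/Smo tests whether the 2 mutants differ from each other. Of the 5 genes 0 were called in limma, where 2.56% of all genes were, and 2 had an unadjusted p under 0.05, against 14.3% of all. These were Bdnf, at 0.60 ± 0.21 (interval 0.13 to 1.07, adjusted p = 0.214), and Ntrk3, at 0.19 ± 0.08 (0.0015 to 0.38, adjusted p = 0.344). Bdnf, Ntrk3 and Sort1 did not overlap between the mutant groups, which held for 18.2% of all genes. Sort1 gave -0.08 ± 0.05 (adjusted p = 0.582), Ngfr 0.12 ± 0.08 (0.556) and Ntrk2 0.07 ± 0.08 (0.788). By main probe set means, Bdnf, Ntrk2, Ntrk3 and Ngfr ran SmoA2, Smo/Smo, Wildtype from high to low and Sort1 the other way. No neighbouring groups in these orders differed at an adjusted p under 0.05. The second Bdnf and Ntrk3 probe sets kept the order. Their SmoA2 against Smo/Smo intervals crossed 0, however. The Bdnf one gave 0.26 ± 0.14 (interval -0.06 to 0.57, adjusted p = 0.490 in limma). The Ntrk3 one gave 0.12 ± 0.07 (-0.03 to 0.28, adjusted p = 0.501). Of the further Ntrk2 probe sets only that of the truncated form did, and that of full-length TrkB ran Wildtype, SmoA2, Smo/Smo. The comparisons with Wildtype share their control arrays and are not independent of each other.

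The genes whose log2 values followed each neurotrophin gene most closely over the 9 arrays were named by Pearson's r. Candidates had a mean log2 of at least 6 and at least 0.5 times the member's range, and arrays share the group differences, so r is a description. For Bdnf they were Hs3st4 (r = 0.95), a heparan sulfate sulfotransferase gene, Rit2 (0.91), a small GTPase gene of neurons, and Dlk1 (0.89), a Notch-related ligand gene. For Ntrk3 they were Sipa1l2 (0.98), Adam11 (0.96) and the Janus kinase gene Tyk2 (0.94). For Ngfr they were Plekho2 (0.98), Rprml (0.97) and the lysosomal galactosidase gene Glb1 (0.97). For Sort1 they were Acss2 (0.98), an acetyl-CoA synthetase gene, Rtkn2 (0.98) and Reps2 (0.97). For Ntrk2 they were Slc38a10 (0.97), Hddc2 (0.96) and Mrpl47 (0.96), a mitochondrial ribosome gene. Hs3st4 read 654, 779 and 590 in SmoA2, 473, 476 and 385 in Smo/Smo, and 472, 513 and 406 in Wildtype, so that SmoA2 replicate 2 and Smo/Smo replicate 3 were its extremes as they were for Bdnf. These 15 genes were chosen on arrays that carry the group differences, so their own differences are descriptions. In SmoA2 against Wildtype 1 of the 15 was called in limma, Reps2 (-0.34, adjusted p = 0.026), where 2.69% of all genes were. Hs3st4 gave 0.60 in SmoA2 against Smo/Smo, just under the threshold (adjusted p = 0.0499 in limma), where 2.56% of all genes were called.

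Other genes of the pathway were described in 6 lists, of which 85 genes were measured. In SmoA2 against Wildtype 1 of the 85 was called, where 2.69% of all genes were. In Smo/Smo against Wildtype and in SmoA2 against Smo/Smo none was, where 0.371% and 2.56% of all genes were. An unadjusted p under 0.05 in limma was reached by 11, 3 and 10 of the 85 in these comparisons, in that order. Over all genes the shares were 14.8%, 8.77% and 14.3%. The called gene was Tnfrsf19 (TROY), a receptor of the p75 family that can stand in for p75 in the Nogo receptor complex. It read 558, 597 and 485 in SmoA2, 668, 694 and 737 in Smo/Smo, and 710, 722 and 702 in Wildtype. All SmoA2 arrays lay below all others, at -0.38 ± 0.08 against Wildtype (1.31-fold lower, adjusted p = 0.0409). The call was lost in 13 of 21 alternatives, among them 8 of the 9 fits without 1 array (adjusted p up to 0.132), with sex as a covariate (0.0772) and when its probe sets were averaged (-0.27, adjusted p = 0.0552). Its second probe set gave -0.16 ± 0.08 (adjusted p = 0.418), at intensities of 27.8 to 35.1, within the background range on all arrays. Among 18 partners and effectors of p75 the median log2 fold change was -0.01, as against 0.01 over all genes.

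Among 5 further ligands and receptors, 0 were called. Sorl1, a sorting receptor of the sortilin family, read 1999.8, 1899 and 1704.5 in SmoA2, 2196, 2133 and 2145 in Smo/Smo, and 2236, 2229 and 2173 in Wildtype. All SmoA2 arrays lay below the others, at -0.25 ± 0.07 against Wildtype (adjusted p = 0.101 in limma). This was called in 2 of 21 alternatives, with genes of mean log2 under 6 left out (adjusted p = 0.0441) and with an intensity trend (0.0297). Ntf5, the gene for neurotrophin-4, lay within the background range on all arrays. Among 17 genes of precursor cleavage, sorting and release, 0 were called and the median was -0.04 in SmoA2 against Wildtype. Cadps2, a factor for the release of BDNF-holding vesicles in the cerebellum, read 5045.5, 4937 and 4736 in SmoA2, 5588, 5489 and 5799.9 in Smo/Smo, and 5524, 5575 and 5625 in Wildtype. Its SmoA2 arrays lay below the others, at -0.20 ± 0.05 against Smo/Smo (adjusted p = 0.104). Cadps2 was called in 3 of 21 alternatives, with genes of mean log2 under 6 left out (adjusted p = 0.0385), with log2(intensity + 16) (0.045) and with an intensity trend (0.0127), and its second probe set gave -0.26 ± 0.12. Scg2, a granin of dense-core vesicles, gave -0.26 ± 0.08 against Wildtype (adjusted p = 0.18).

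Among 27 Trk adaptors and kinases, 0 were called and the median of SmoA2 against Wildtype was -0.01. The adaptor gene Sh2b2 gave 0.26 ± 0.08 (adjusted p = 0.173) and the kinase gene Akt2 -0.14 ± 0.06 (0.295) in SmoA2 against Smo/Smo. The second Sh2b2 probe set gave -0.08 ± 0.07 there (adjusted p = 0.663), and the mean of both gave 0.09. The second Akt2 probe set gave -0.26 ± 0.07 (adjusted p = 0.0999). Among 11 genes that Trk signals induce in neurons, 0 were called and the median was -0.01. Dusp6, a phosphatase gene induced by ERK signals, read 1080.2, 1165 and 1422.5 in SmoA2, 1300.5, 1189 and 1080.2 in Smo/Smo, and 962, 846 and 1017 in Wildtype. Both mutant groups lay above Wildtype, and SmoA2 against Wildtype gave 0.37 ± 0.12 (adjusted p = 0.168). Arc, an activity-induced synaptic gene, gave -0.26 ± 0.09 (adjusted p = 0.184) at mean log2 levels of 5.71 in SmoA2 and 5.97 in Wildtype, just above the background range. Among 7 regulators of Bdnf transcription, 0 were called and the median was -0.09. Mef2c, an activity-dependent transcription factor gene, gave -0.28 ± 0.08 (adjusted p = 0.112) and Usf2 -0.18 ± 0.09 (0.435). Mef2c was called in 1 of 21 alternatives, with an intensity trend (adjusted p = 0.0497), and its other probe sets gave -0.13 and -0.31. The second Usf2 probe set went the other way, at 0.15 ± 0.09 (adjusted p = 0.536), and the mean of both gave -0.014.

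**Figure D4:**
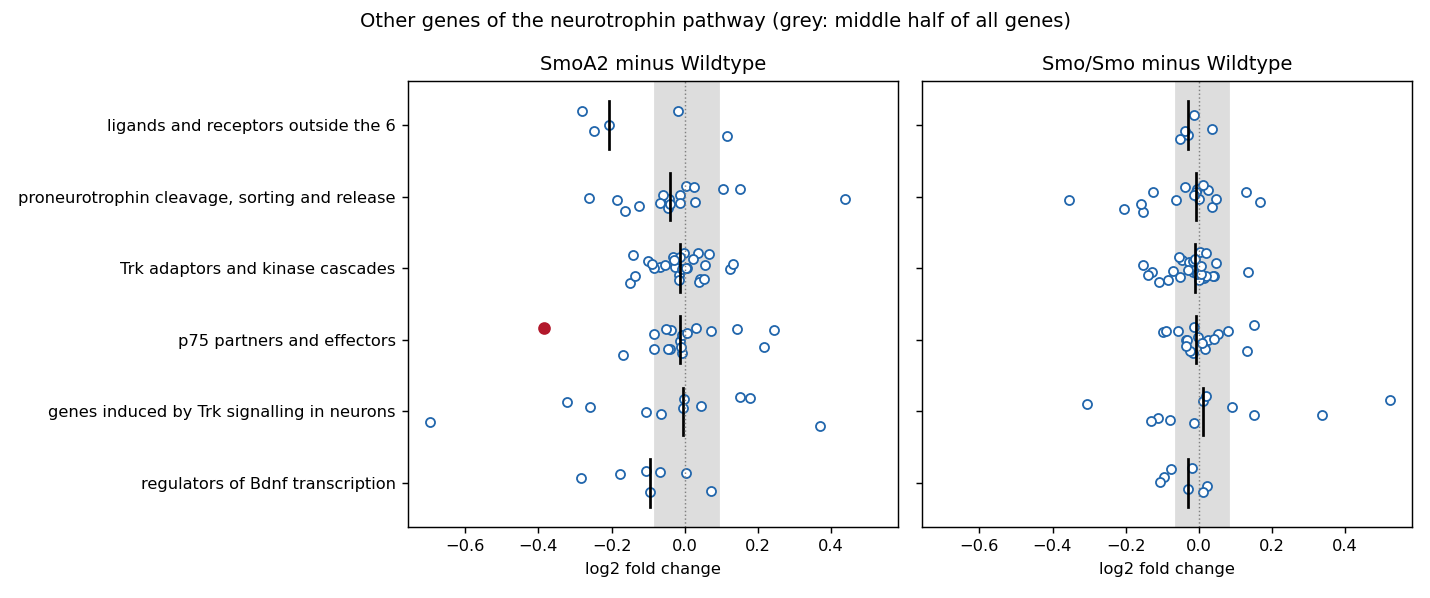
Log2 fold change of the measured genes of the 6 pathway lists in SmoA2 minus Wildtype and Smo/Smo minus Wildtype, 1 point per gene, with a bar at each list's median and a grey band from the lower to the upper quartile of all 19147 genes. The filled point is Tnfrsf19, the 1 gene called, and the medians lie between -0.21 and 0.01.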

How the data were processed

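Each of 9 mouse arrays (3 per group) held deposited values for 38385 probe sets. These are linear RMA probe set intensity values, per the labels, and the authors' background correction and normalization were kept. Values were turned to log2 here from the deposited intensity. Gene symbols came from the platform annotation, with 24478 probe sets of 1 symbol, 65 of several and 13842 of none. Each of 19147 genes was represented by its brightest probe set (mean log2 over the arrays). Tests used limma 3.58.1 in R 4.3.3 (lmFit and eBayes, 1 mean per group, 3 contrasts), with Benjamini-Hochberg adjustment over all genes, and adjusted p-values of further probe sets are over every probe set with a single symbol. A gene was called at an adjusted p under 0.05. The fit was tested on simulated data. Each array is from another animal code in the labels, so p-values measure the spread between mice, but litters and array dates are not given in the sources used here. Detection calls were not used here, and signal near background understates a fold change.

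Members and lists were chosen with earlier results of these data known. All members were named, and of each pathway list the genes called (at most 6) or, where none was called, the 2 with the smallest p. Cell type markers were named where their level stands beside a member's result. The 3 genes most like each member were those with the highest Pearson r over 9 arrays among genes with a mean log2 of at least 6 and at least 0.5 times the member's range, leaving out clone and model-number symbols. Promoter sequences are from RefSeq (GRCm38.p6). Alternatives covered the probe set rule, filter, scaling, pseudocount (16), variance model, groups fitted, sex, threshold and single arrays left out, 21 in all.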

Additional observations from a re-analysis of the deposited data

Results flagged for a closer look

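A second probe set of Sorl1, the gene for a sorting receptor of the sortilin family, differed between the mutants. It was annotated with NM_011436 and singled out after its values were seen. It read 141, 127 and 148 in SmoA2, 389, 654 and 662 in Smo/Smo, and 175, 175 and 168 in Wildtype. The 3 Smo/Smo arrays stood above all others. The log2 fold change of SmoA2 against Smo/Smo was -1.999 ± 0.18 (SE, n = 3 per group), or 3.998-fold lower (adjusted p = 0.00109 over every probe set with a single symbol), and Smo/Smo against Wildtype gave 1.68 ± 0.18 (adjusted p = 0.00575). The probe set with the higher level gave -0.21 ± 0.07 and -0.04 ± 0.07 for these comparisons (adjusted p = 0.181 and 0.932), so the probe sets of Sorl1 differed in what they showed, and the cause was not tested.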

How the results depend on the processing

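None of the 5 genes was called in Smo/Smo against Wildtype or in SmoA2 against Smo/Smo in the standard setting, and the 21 alternatives changed 2 signs. Bdnf in Smo/Smo against Wildtype was 0.03, but -0.024 without Wildtype replicate 1, -0.043 without Wildtype replicate 3 (also -0.043 with SmoA2 replicate 3 left out), -0.080 without Smo/Smo replicate 1 and -0.087 without Smo/Smo replicate 2. It ranged from -0.087 to 0.25 over single arrays left out. Ntrk2 in SmoA2 against Smo/Smo was 0.07 and -0.0032 without SmoA2 replicate 3, with or without Wildtype replicate 3, in a range of -0.0032 to 0.14 over single arrays left out. The number of genes called in SmoA2 against Wildtype was 515. It was 776 among genes with a mean log2 of at least 6, 235 with only the 2 groups fitted, 215 without replicate 3 of SmoA2 and Wildtype, and 187 at an adjusted p under 0.01. It spanned 234 to 445 without 1 array, being 297 without SmoA2 replicate 1 and 253, 234 and 323 without Wildtype replicates 1, 2 and 3. In Smo/Smo against Wildtype it was 71, with 162 under array weights, 42 with only the 2 groups, 42 with sex as a covariate, 38 without both replicates 3 and 19 at the stricter threshold. Without 1 array it spanned 21 to 65, with 37, 30 and 25 when Smo/Smo replicates 1, 2 and 3 were dropped in turn, and 25 and 21 when Wildtype replicates 1 and 2 were. In SmoA2 against Smo/Smo it was 490, with 809 under the filter, 795 with an intensity trend, 231 with only the 2 groups, 296 without both replicates 3 and 142 at the stricter threshold. Without 1 array it spanned 170 to 467, with 219, 170 and 202 when Smo/Smo replicates 1, 2 and 3 were dropped in turn and 247 when SmoA2 replicate 1 was. No paired analysis was possible because the labels give animal codes and no replicate numbers shared between groups. Signals near background limit what Bdnf can show.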
